A study of Rattus norvegicus with 16 samples.

Results

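RNA from rat knee cartilage was sequenced in 16 libraries, 4 in each of 4 groups, all from rats labelled as 10 weeks old. The comparison described here sets 4 libraries of cartilage from osteoarthritic joints given hyaluronic acid (HA) together with cells and a drug against 4 libraries of osteoarthritic cartilage without that treatment, 8 of the 16 libraries in all. The library names call the first group HCD and the second PBS. The labels name neither the drug nor the cells, nor how the joint disease was brought about, and HA was not given alone, so HA, cells and drug cannot be told apart. Healthy cartilage, whose library names read Sham, is given beside both groups as a description. Of 23552 genes in the table, 14337 were tested, those with at least 1 FPKM (fragments scaled to gene length and depth) in at least 4 of the 16 libraries.

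Hyaluronic acid is a long sugar chain that binds water and fills synovial fluid. In cartilage it is the backbone to which aggrecan attaches through link protein, and cells meet it through receptors such as CD44. It is made at the cell membrane by hyaluronan synthases and cut by hyaluronidases. In osteoarthritis, collagenases and aggrecanases break down the collagen and aggrecan of the matrix, and oxidative stress in chondrocytes is met by enzymes such as catalase.

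The osteoarthritic libraries 2 and 3 stood apart from the other osteoarthritic libraries, and many of the values below turn on them. In 7191 genes, 50.2% of those tested, these libraries were either the 2 highest (3562 genes) or the 2 lowest (3629 genes) of the 8, and the other 27 pairs of libraries took those places in 1.71% to 19.7% of genes. Haemoglobin chains took 22.2% and 21.7% of their counts, against 12.7% and 10.2% in osteoarthritic libraries 1 and 4 and 11.1% to 12.5% in the HA-treated libraries. Total counts ran from 44497935 to 48985255 over the 8 libraries, so depth was similar. Cartilage genes were present in all 8, with 169 to 593 FPKM for the collagen II gene Col2a1 and 77.0 to 171 FPKM for Comp. Every library also held RNA of blood, marrow, bone and muscle: Hba-a1 stood at 64536 FPKM or more, the osteocalcin gene Bglap at 269 or more and the skeletal actin gene Acta1 at 418 or more. In such bulk samples fewer cells of a type and less RNA per cell cannot be told apart. Whether the replicates stem from different rats is not labelled, so p-values measure the spread between libraries, pooled over all 4 groups.

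No gene passed the test between HA-treated and osteoarthritic cartilage. With edgeR's quasi-likelihood test, 0 of 14337 genes (0.0%) had a Benjamini-Hochberg adjusted p under 0.05, and the smallest was 0.562. At an unadjusted p under 0.05 there were 909 genes (6.34%), 324 higher with HA treatment (2.26%) and 585 lower (4.08%). DESeq2 called 8 of 14323 genes (0.0559%) and limma 1 of 14337 (0.00697%). The split of low p-values differed between edgeR on counts, with 64.4% of them on the lower side, and limma on log2(FPKM + 1), with 8.74% there and a median of all genes that was 0.13 higher on the log2 scale. With the other scalings tried in edgeR, 63.4% to 68.9% were on the lower side. Scaling to depth alone, as in FPKM, was not tried in edgeR, so the source of this split was not tested. The scaling factors of the main fit were 0.838 and 0.877 in osteoarthritic libraries 2 and 3. They were 1.02 to 1.06 in the rest of the 8 libraries. Over all genes the edgeR median log2 fold change was -0.011, with quartiles of -0.17 and 0.12. A change of over 1.5-fold in either direction was estimated for 768 genes (5.36%) and of over 2-fold for 147 (1.03%). For a gene of median precision the 95% interval reached 0.38 log2 units to either side of its estimate. In a typical gene an estimate smaller than that was not told from 0 even without adjustment. The adjusted test asks for larger changes.

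Osteoarthritic libraries differed among themselves more than HA-treated ones did. The standard deviation of a gene's log2 level over the 4 libraries of a group had a median of 0.34 in the osteoarthritic group, 0.18 in the HA-treated and 0.16 in the healthy group. It was larger in the osteoarthritic than in the HA-treated group for 11509 of 14337 genes (80.3%). The main fit pools a gene's spread over all 16 libraries, so its p-values may be too small and its intervals too narrow here. In edgeR on the 8 libraries alone, 415 genes had an unadjusted p under 0.05, against 909 in the main fit. Of the 585 genes with a low p on the lower side, 508 (86.8%) had osteoarthritic libraries 2 and 3 as the 2 highest of the 8. Without these libraries 325 of the 585 (55.6%) kept their direction and 41 (7.01%) had a p under 0.05 again. Of the 324 genes on the higher side, 170 (52.5%) had osteoarthritic libraries 2 and 3 as the 2 lowest of the 8. Over all 14337 genes these libraries were the 2 highest in 3562 and the 2 lowest in 3629. All 324 genes kept their direction without them, and 87 (26.9%) had a p under 0.05 in both fits. The edgeR fit without both libraries called 0 genes too, with a smallest adjusted p of 0.0971. At an unadjusted p under 0.05 it had 1636 genes, 946 higher (6.6%) and 690 lower (4.81%). That fit was chosen after the data were seen. Its low p-values describe how values turn on these libraries and support no direction.

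**Figure D1:**
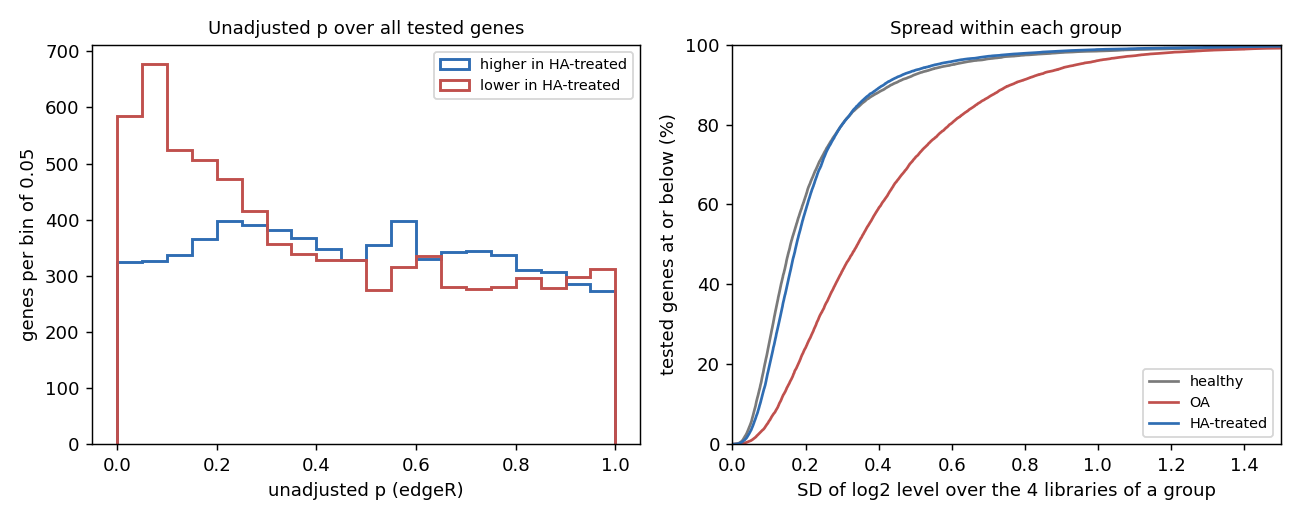
Left, number of tested genes (y axis) by unadjusted edgeR p in bins of 0.05 (x axis), for genes higher and genes lower with HA treatment. Right, cumulative share of tested genes in percent (y axis) by the standard deviation of their log2 level over the 4 libraries of a group (x axis). The lower side holds 585 genes in the first bin and the higher side 324, and the osteoarthritic curve lies to the right of the other curves, with a median of 0.34.

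Between the 8 libraries, 273 genes did not overlap (1.9%): all HA-treated values of 155 were above (1.08%) and of 118 below (0.823%) the osteoarthritic ones. The antioxidant enzyme gene Cat, on chromosome 3 from 93379874 to 93412058 of the rn6 build, was among the lower ones. Cat encodes catalase, which splits hydrogen peroxide in peroxisomes and is abundant in red cells. Its normalised CPM (counts scaled to library size) were 234, 272, 321 and 213 in osteoarthritic libraries 1 to 4 and 155, 157, 174 and 202 in HA-treated libraries 1 to 4. Every treated library lay below every untreated one, with the closest pair at 202 and 213. The log2 fold change was -0.60 (standard error 0.13, edgeR adjusted p = 0.745), a ratio of 0.661 with a 95% interval of 0.544 to 0.805. DESeq2 called Cat (adjusted p = 0.0283). Without osteoarthritic libraries 2 and 3 the log2 fold change was -0.38. Healthy cartilage had 229, 195, 207 and 212 CPM, a range that overlapped both groups. The 300 bases around the start of Cat, from the RefSeq promoter table of the GRCr8 build (chr3:110329477-110329776, minus strand, 250 bases before and 50 after the start), are shown because Cat is the named gene with the smallest p on the lower side. The capitals mark CCAAT on either strand, which is read as ATTGG on the other.
Cat promoter: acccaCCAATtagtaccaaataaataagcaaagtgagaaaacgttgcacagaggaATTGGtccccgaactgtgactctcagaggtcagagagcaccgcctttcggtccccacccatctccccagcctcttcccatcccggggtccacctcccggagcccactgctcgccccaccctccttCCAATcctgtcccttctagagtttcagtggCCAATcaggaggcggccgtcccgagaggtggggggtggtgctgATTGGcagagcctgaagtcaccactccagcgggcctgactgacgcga
The window holds 5 matches. At least 1 CCAAT stood in 37.7% of the 27457 promoters of the table and in 7 of the 22 antioxidant genes matched to it (31.8%). A match is a description of letters and does not show binding.

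The other peroxisomal genes were near no difference. The list of 30 tested peroxisome genes had a median log2 fold change of -0.0067, with 13 members higher and 17 lower. Cat was its only member at an unadjusted p under 0.05 and its only member without overlap, against 6.34% and 1.9% of all genes. Among 27 antioxidant genes the median was -0.22, with 6 higher and 21 lower, 6 of the latter at a low p, where 4.08% of all genes were lower at a low p. Gpx1, the cytosolic glutathione peroxidase, had 649, 2118, 2054 and 740 CPM in the osteoarthritic libraries and 605, 868, 765 and 809 in the treated ones. Only osteoarthritic libraries 2 and 3 stood above the treated range, and its log2 fold change of -0.87 became 0.13 without them. Gclm, the regulatory subunit of the enzyme that starts glutathione synthesis, had a log2 fold change of -0.51, and -0.15 without them. The list's median likewise became 0.11, with 20 members higher and 7 lower.

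Erfe, on chromosome 9 from 98505259 to 98511160, encodes erythroferrone, a hormone that erythroid precursors secrete to lower hepcidin and free iron for haemoglobin. It had 8.47, 13.2, 9.61 and 7.51 CPM in the osteoarthritic libraries and 5.05, 4.68, 5.38 and 7.27 in the treated ones, with 5.66, 4.96, 6.14 and 7.26 in healthy cartilage. The treated values lay below the untreated ones, narrowly so for library 4 of either group, and within or near the healthy range. The log2 fold change was -0.79 (standard error 0.19, edgeR adjusted p = 0.745), and -0.52 without osteoarthritic libraries 2 and 3. These values rest on 233 to 533 counts per library. The Erfe promoter of the same table (GRCr8, chr9:99404264-99404563, plus strand) is shown because erythropoietin signals through STAT5. The capitals mark the motif TTCNNNGAA.
Erfe promoter: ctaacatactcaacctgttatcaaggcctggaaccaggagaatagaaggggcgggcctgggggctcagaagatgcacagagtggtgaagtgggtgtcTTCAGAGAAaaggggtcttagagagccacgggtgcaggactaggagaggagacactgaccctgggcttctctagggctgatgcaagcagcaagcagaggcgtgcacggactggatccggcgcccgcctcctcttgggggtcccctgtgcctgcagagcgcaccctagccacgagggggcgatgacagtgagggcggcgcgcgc
The motif, which reads alike on both strands, stood in 8.68% of the 27457 promoters, and among the 23 erythroid genes matched to the table Erfe was the only holder.

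Other erythroid genes were closer to no difference. The 30 tested erythroid genes other than haemoglobin had a median log2 fold change of -0.14, with 5 higher and 25 lower. That median was 0.013 with limma at either pseudocount, where all genes shifted upwards by 0.13 and 0.16. At a low p were Erfe, Bpgm, Alas2 and Fech, all lower, against 4.08% of all genes. Bpgm makes the red-cell metabolite that loosens oxygen from haemoglobin, and had 517, 1031, 978 and 444 CPM in the osteoarthritic and 372, 481, 424 and 463 in the treated libraries. Alas2, the first enzyme of haem synthesis in erythroid cells, had 1013, 1656, 1711 and 851 CPM in the osteoarthritic libraries and 793 to 975 in the treated ones. Both were high in osteoarthritic libraries 2 and 3 and overlapped otherwise: their log2 fold changes of -0.77 and -0.50 became -0.15 and -0.012 without these libraries. Fech, the last enzyme of haem synthesis, was at -0.42 and became -0.026. The erythroid regulators Gata1 and Klf1 were at -0.010 and -0.11, and at -0.0098 and 0.14 without these libraries. The median of the list was then -0.062, with 9 members higher and 21 lower. Of the list, 4 were lower at a low p in that fit, against 4.81% of all genes.

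Haemoglobin chains gave the lowest median of the 34 lists, -0.70, with 8 of 8 members lower and 3 at a low p, against 4.08% of all genes on that side. The embryonic-type chain gene Hbe1 had 0.500, 9.98, 10.6 and 1.22 CPM in the osteoarthritic libraries and 1.01, 0.803, 0.662 and 0.645 in the treated ones. The adult chain gene Hbb had 29410, 90776, 81173 and 26408 CPM against 26890, 31334, 28668 and 34180. In both genes osteoarthritic libraries 1 and 4 lay within or near the treated range and libraries 2 and 3 far above it. The log2 fold changes were -2.83 for Hbe1 and -0.91 for Hbb with all libraries, and -0.13 and 0.12 without these 2. The median of the list became 0.073, with 6 members higher. Haemoglobin genes are near copies of each other, so their split is uncertain.

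**Figure D2:**
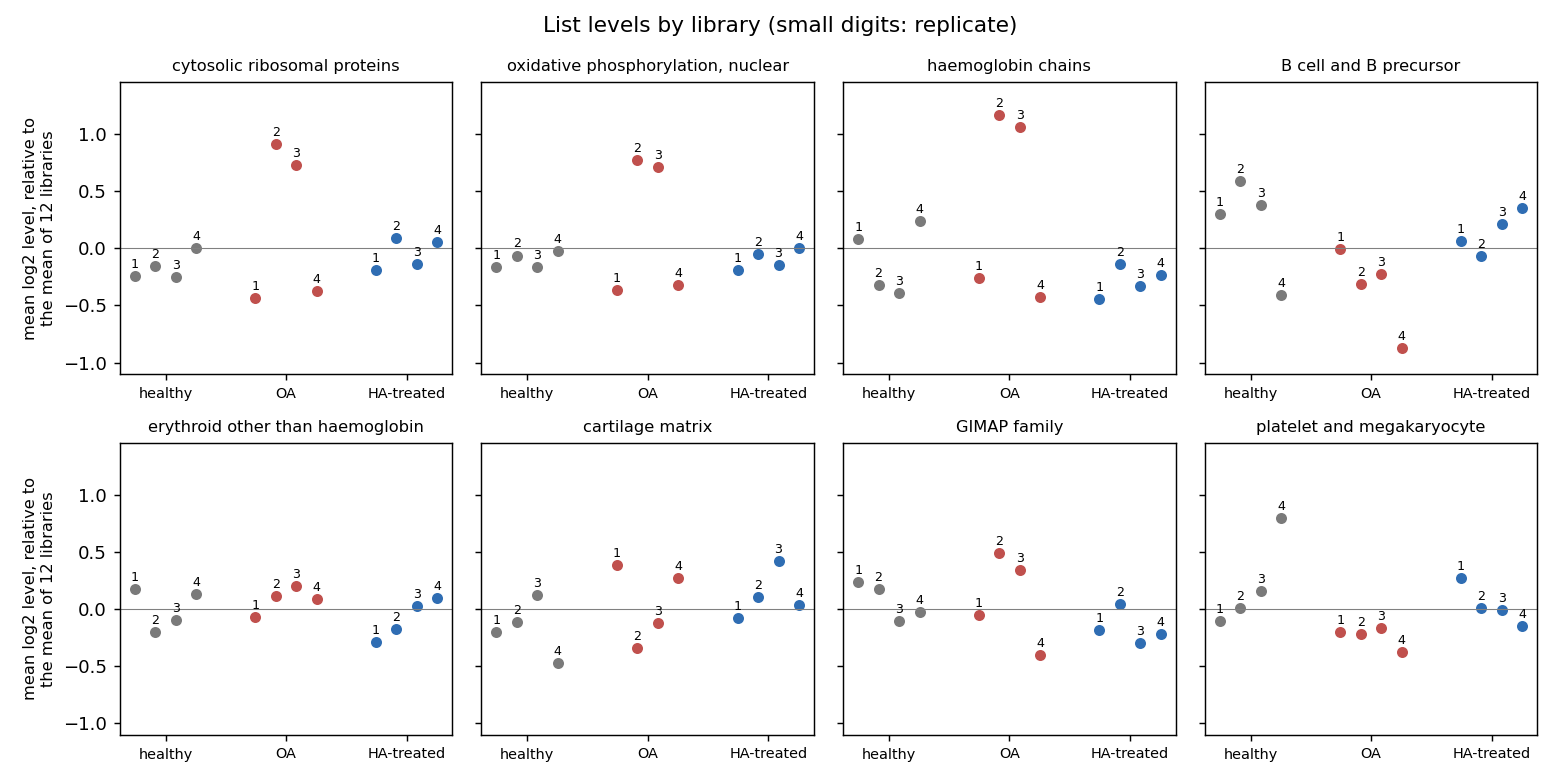
Mean log2 level of the members of 8 gene lists (y axis, relative to the mean of the 12 libraries drawn) in each healthy, osteoarthritic (OA) and HA-treated library (x axis), with the replicate number above each point. Osteoarthritic libraries 2 and 3 stand at 0.91 and 0.73 for ribosomal proteins and at 1.16 and 1.06 for haemoglobin chains, while the B cell level is between -0.87 and -0.0076 in all 4 osteoarthritic libraries.

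Gimap4, on chromosome 4 from 78320190 to 78327144, encodes a small GTPase of immune cells that bears on lymphocyte survival. It had 13.4, 25.3, 20.4 and 13.7 CPM in the osteoarthritic libraries, 10.6, 10.9, 8.48 and 10.8 in the treated ones and 16.1, 12.7, 12.5 and 11.3 in healthy cartilage. The treated values were the lowest of the 12. The log2 fold change was -0.84 (standard error 0.21, edgeR adjusted p = 0.745), and -0.41 without osteoarthritic libraries 2 and 3. The 6 tested members of this gene family had a median of -0.32, with 5 lower. Gimap4 alone was at a low p, where 4.08% of all genes were lower at a low p. Without osteoarthritic libraries 2 and 3 the median was 0.096, with 3 higher and 3 lower. In that fit 1 was higher at a low p, against 6.6% of all genes. Gimap9 had a log2 fold change of -0.47 and Gimap5 of -0.36, and without these libraries their values were -0.034 and 0.28. The list of T cell and NK cell genes, whose cells express this family, had a median of -0.20 with 4 of 18 members higher and 0 at a low p. Its members were scarce: Cd3e, a chain of the T cell receptor complex, stood at 0.86 to 3.90 FPKM. Cd3d had 1.77, 4.65, 4.64 and 0.871 CPM in the osteoarthritic and 1.53, 3.23, 0.889 and 0.645 in the treated libraries, which overlap.

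B cell genes stood on the higher side. Of 23 tested genes of B cells and their precursors, 21 were higher with HA treatment and 8 of these had a low p, with a median of 0.44, while 2 were lower and none of these had a low p. Over all genes 47.8% were higher, 52.2% were lower and 2.26% were higher at a low p. Leaving out any 1 library gave medians of 0.32 to 0.59, and leaving out osteoarthritic libraries 2 and 3 gave 0.49 with 22 of 23 higher. The mean level of the list was -0.0076, -0.31, -0.23 and -0.87 in the osteoarthritic libraries, 0.061, -0.066, 0.21 and 0.35 in the treated ones, and 0.30, 0.59, 0.38 and -0.41 in the healthy ones, in log2 units from the mean of the 12. Treated library 2 lay below osteoarthritic library 1, the other treated libraries lay above every osteoarthritic one, and healthy libraries spanned both groups.

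Rag1 and Rag2, neighbours on chromosome 3, encode the enzyme pair that cuts immunoglobulin and T cell receptor genes for rearrangement in lymphocyte precursors. Rag1 (91206394 to 91217491) had 70.5, 32.4, 40.6 and 44.4 CPM in the osteoarthritic libraries and 67.7, 80.8, 89.9 and 107 in the treated ones. Only osteoarthritic library 1 reached the treated range. The log2 fold change was 0.88 (standard error 0.29, edgeR adjusted p = 0.745), and 0.59 without osteoarthritic libraries 2 and 3. Healthy cartilage ranged from 43.8 to 132 CPM, wider than either group. Rag2 had 15.0, 7.29, 13 and 12 against 16.2, 17.4, 20.7 and 26.3 CPM, without overlap, and a log2 fold change of 0.77. Vpreb3, which helps assemble the pre-B cell receptor, had 13.6, 10.7, 26.6 and 7.64 against 23.1, 25.6, 42.7 and 37.0 CPM, where osteoarthritic library 3 overlapped the treated ones.

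The named genes of later B cells had differences of varied size. Ighm, the constant region of the IgM heavy chain, had 1870.2, 2071, 1793 and 1465 CPM in the osteoarthritic libraries and 2255, 2504, 2413 and 2588 in the treated ones, without overlap, a log2 fold change of 0.44. The CD20 gene Ms4a1 was at -0.093 and the BAFF receptor gene Tnfrsf13c at 0.031. Without osteoarthritic libraries 2 and 3 they were at 0.39 and 0.55, where the median of the B cell list was 0.49. Irf4, a transcription factor of B cells and plasma cells that was not on the list, had 46.1, 26.8, 29.6 and 29.7 CPM against 48.9, 43.8, 61.5 and 60.3, where osteoarthritic library 1 overlapped 1 treated library. Platelet and megakaryocyte genes had a median of 0.29, with 12 of 15 higher and 3 at a low p, against 2.26% of all genes on that side. The von Willebrand receptor gene Gp1ba had 67.7, 36.5, 41.7 and 59.6 CPM against 89.1, 62.1, 92.6 and 68.8, and the fibrinogen receptor gene Itga2b had 315, 232, 207 and 222 against 428, 296, 340 and 269. Both overlapped through osteoarthritic library 1. Without that library the median of the list was 0.47. Without osteoarthritic libraries 2 and 3 the list had 3 genes higher at a low p, against 6.6% of all genes.

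Of the 118 genes that were lower with HA treatment without overlap (0.823%), the naming rule took 12. Slc35c2, a sugar-nucleotide transporter family member of the Golgi, had 52.4, 47.9, 43.9 and 42.7 CPM in the osteoarthritic libraries and 35.4, 25.8, 31.1 and 29.4 in the treated ones, and its log2 fold change was -0.62 with all libraries and -0.65 without these 2. Snai2, a transcription factor of mesenchymal cells, had 12.5, 13.2, 14.2 and 12.2 against 5.75, 9.61, 8.52 and 10.0 CPM (log2 fold change -0.62). Healthy cartilage had 5.70 to 7.72 CPM of Snai2, below every osteoarthritic library, and the osteoarthritic against healthy difference passed the test (0.97, edgeR adjusted p = 0.029). These comparisons share the osteoarthritic libraries, so one does not support the other. Ccn1, a matrix protein gene induced by mechanical load and growth factors, had 78.5, 66.7, 68.7 and 46.8 against 35.5, 44.9, 38.3 and 31.7 CPM (-0.79). The BMP ligand gene Bmp4 had 18.7, 19.5, 19.4 and 14.5 against 9.99, 12.7, 13.9 and 13.4 CPM (-0.53), and the inhibitory Smad gene Smad6 had 4.77, 5.44, 4.83 and 4.81 against 4.16, 4.11, 3.95 and 2.69 CPM (-0.41). Over 22 genes of TGF-beta and BMP signalling the median was 0.057 with 13 higher and 9 lower, so Bmp4 and Smad6 went against the middle of their list. That median was -0.16 without osteoarthritic libraries 2 and 3, and Snai2, Ccn1, Bmp4 and Smad6 were then at -0.54, -0.74, -0.41 and -0.36.

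Rras, a small GTPase of the Ras family, had 14.3, 18.8, 20.2 and 16.7 CPM in the osteoarthritic and 12.2, 13.3, 14.1 and 11.4 in the treated libraries, a log2 fold change of -0.46. Osteoarthritic library 1 lay just above the highest treated one. Healthy cartilage had 9.89, 10.2, 9.76 and 12 CPM, and the osteoarthritic group exceeded it (0.74, edgeR adjusted p = 0.0197). Both comparisons of Rras share the osteoarthritic libraries, so one does not support the other. Nol12, Tspan4 and Ccdc167 did not overlap either, at -0.66, -0.60 and -0.68, and were -0.15, -0.29 and -0.25 without osteoarthritic libraries 2 and 3. Echdc3, a mitochondrial protein gene, was lower at -0.90 with 1.26 to 2.62 against 0.949 to 1.30 CPM, overlapping by 1 library. Ankrd24 and the growth factor gene Nrtn had low p-values that rested on the 2 libraries that stood apart: Ankrd24 had 3.82, 10.8, 10.8 and 3.70 against 1.88, 4.59, 1.84 and 1.29 CPM, and Nrtn had 2.25, 7.19, 7.59 and 3.70 against 2.68, 2.23, 1.59 and 2.47 CPM. Their log2 fold changes of -1.60 and -1.20 were -0.64 and -0.40 without these libraries.

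**Figure D3:**
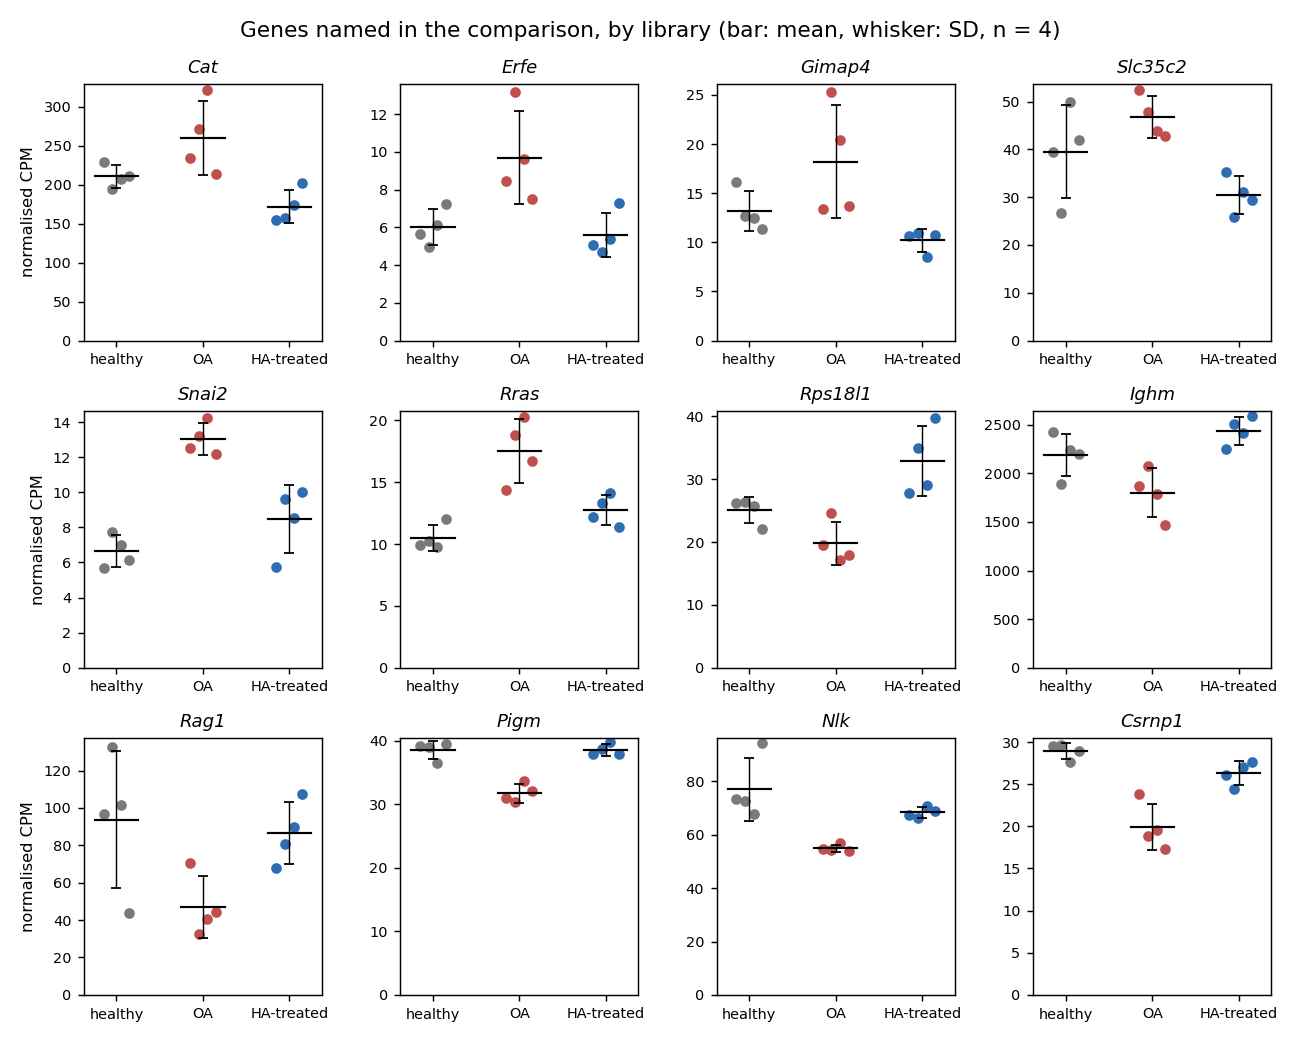
Normalised CPM (y axis) of 12 named genes in each healthy, osteoarthritic (OA) and HA-treated library (x axis); each point is a library, the bar is the mean of 4 and the whisker the standard deviation. Apart from Rag1, the genes shown did not overlap between osteoarthritic and HA-treated libraries, and for Nlk the osteoarthritic points lie at 53.9 to 57.0 and the treated ones at 66.5 to 70.8.

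Among genes that were higher, Nlk and Pigm had closely grouped values. Nlk encodes a kinase that acts on Wnt and Notch signalling, and had 54.6, 54.4, 57.0 and 53.9 CPM in the osteoarthritic libraries, 67.3, 66.5, 70.8 and 69.0 in the treated ones and 73.6, 72.7, 67.7 and 94.3 in healthy cartilage. Pigm, a mannosyltransferase of the glycolipid anchor pathway, had 30.9, 30.3, 33.7 and 32.1 CPM, then 37.9, 38.7, 39.8 and 37.8, and 39.2, 39.1, 36.5 and 39.5. In both genes the 4 treated libraries were apart from the osteoarthritic ones and near the healthy ones. The differences were small, 0.31 (standard error 0.10) for Nlk and 0.28 (0.08) for Pigm on the log2 scale, with an edgeR adjusted p of 0.745 for each. Without osteoarthritic libraries 2 and 3 they were 0.33 and 0.29. Csrnp1, a nuclear protein gene induced by axin, had 23.8, 18.9, 19.6 and 17.3 against 26.1, 24.4, 27.0 and 27.7 CPM (0.40). For Nlk and Csrnp1 the osteoarthritic against healthy difference passed the test, at -0.49 (edgeR adjusted p = 0.0371) and -0.54 (adjusted p = 0.0466), again with shared osteoarthritic libraries.

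The transcription factor gene Etv6 had 10.8, 8.40, 8.75 and 12.4 against 15.0, 12.6, 14.7 and 12.8 CPM (log2 fold change 0.45), with the closest values at 12.4 and 12.6. Itpkc, an inositol trisphosphate kinase gene, had 9.09, 7.41, 6.75 and 8.86 against 10.7, 11.3, 10.4 and 10.4 CPM (0.41). The DNA repair glycosylase gene Neil1 had 18.6, 9.59, 12.3 and 11 against 22.7, 20.8, 18.9 and 18.9 CPM (0.66), nearly meeting at osteoarthritic library 1. These 3 genes were apart with all libraries and were at 0.25, 0.25 and 0.45 without osteoarthritic libraries 2 and 3. Ccdc142 and Klhl24 did not overlap, at 0.51 and 0.47, and Tmem241, a gene with 0.595 to 1.11 against 1.14 to 1.80 CPM, was at 0.89.

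Mir3064 was the only microRNA gene among those with the 10 smallest p-values on the higher side. The oligo(dT) libraries measure the primary transcript or its host, not the mature microRNA. Its feature, on chromosome 10 from 94982051 to 94982117, lies inside the RNA helicase gene Ddx5 (94980928 to 94988461) on the same strand, so reads of both cannot be told apart. The mature sequence from RefSeq (GRCr8) is shown with its seed, bases 2 to 8, in capitals.
rno-miR-3064-3p: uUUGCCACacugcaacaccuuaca
Mir3064 had 11.4, 9.47, 8.25 and 11.2 CPM in the osteoarthritic and 14.8, 12.5, 14.5 and 12.8 in the treated libraries, without overlap (log2 fold change 0.44). Ddx5 as a whole had 714 to 778 against 732 to 802 CPM (0.060).

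Of the 8 genes DESeq2 called, 3 are annotated as copies of ribosomal protein genes. Rps18l1, a copy annotated as ribosomal protein S18-like on chromosome 10 (104521700 to 104522241), had 19.5, 24.6, 17.1 and 17.9 CPM in the osteoarthritic libraries, 27.7, 35.0, 29.0 and 39.7 in the treated ones and 22.1 to 26.3 in healthy cartilage. The groups did not overlap, and the log2 fold change was 0.73 (standard error 0.15, edgeR adjusted p = 0.69, DESeq2 adjusted p = 0.0208). The parent gene Rps18 had 345, 1059, 840 and 322 CPM against 442, 501, 432 and 463, a pattern set by osteoarthritic libraries 2 and 3. RGD1565131, a processed pseudogene similar to Rpl15, had 4.92, 3.04, 2.47 and 2.33 against 5.47, 7.32, 6.55 and 8.39 CPM, and LOC689899, similar to Rpl23a, had 5.86, 4.67, 4.92 and 6.83 against 7.31, 11.2, 8.79 and 9.68 CPM. Both were apart, at 1.12 and 0.73, while Rpl15 and Rpl23a themselves were at -0.22 and -0.36. Reads of such copies can be split from their parents by the counting, so these values are uncertain. Among 81 features annotated as similar to a ribosomal protein, 8 were higher and 8 lower at a low p. Over all genes these shares were 2.26% and 4.08%. The 3 copies named above were the only ones of the 81 apart on the higher side, and 0 were apart on the lower side. Over all genes 1.08% and 0.823% were apart on these sides. The median of the 81 was -0.067, and 0.45 without osteoarthritic libraries 2 and 3. Of 324 tested pseudogenes 19 (5.86%) lay apart on the higher side, against 112 of 12813 protein-coding genes (0.874%). On the lower side 4 pseudogenes (1.23%) and 105 protein-coding genes (0.819%) lay apart.

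DESeq2 also called the unnamed AABR07015743.1 (15.8, 13.2, 11.1 and 11.4 against 19.8, 23.5, 20.7 and 27.9 CPM) and AC105662.1 (1.88, 1.29, 1.55 and 2.29 against 3.75, 4.62, 4.24 and 2.58 CPM), which did not overlap. AC093995.1, also called by limma (adjusted p = 0.0159), had 0, 0, 0 and 11 counts in the osteoarthritic libraries and 40, 35, 40 and 42 in the treated ones. The 11 counts of osteoarthritic library 4 set the size of any fold change, and without that library edgeR called this gene alone (adjusted p = 0.000109). AABR07065768.1 had 374 counts in osteoarthritic library 1 and 0 in the other 7, so its call by DESeq2 rests on 1 library, and healthy cartilage ranged from 0 to 17.7 CPM.

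Nuclear genes of oxidative phosphorylation and cytosolic ribosomal protein genes were mostly lower, and turned without osteoarthritic libraries 2 and 3. Of 76 features of nuclear oxidative phosphorylation genes 73 were lower with HA treatment, 22 at a low p against 4.08% of all genes, with a median of -0.36. Without these libraries 73 were higher, 29 at a low p against 6.6% of all genes, with a median of 0.24. Uqcrq, a subunit of complex III, had 26.8, 118, 115 and 29.7 CPM in the osteoarthritic libraries and 33.5, 34.0, 33.0 and 38.6 in the treated ones. Ndufc1, of complex I, had 4.71, 20.9, 21.7 and 4.48 against 5.37, 6.88, 5.42 and 5.63 CPM. In both, libraries 1 and 4 were below every treated library and libraries 2 and 3 were far above them. The turn of the list follows from leaving out libraries 2 and 3 and supports no rise with HA treatment. The 13 mitochondrially encoded protein genes had a median of 0.15 with 11 higher and 0 at a low p, and -0.0071 without these libraries.

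Of 83 features of cytosolic ribosomal protein genes, 77 were lower, 10 at a low p against 4.08% of all genes, with a median of -0.38. Without osteoarthritic libraries 2 and 3, 79 were higher, 65 at a low p against 6.6% of all genes, with a median of 0.38. The list stood at -0.43 and -0.37 log2 units in osteoarthritic libraries 1 and 4 and at 0.91 and 0.73 in libraries 2 and 3. In the treated libraries it stood at -0.19 to 0.089, so these lay between. Leaving out libraries 2 and 3, a choice made after the data were seen, left only osteoarthritic libraries below every treated one. The turn and its low p-values follow from that choice and support no rise with HA treatment. Rpl37, of the large subunit, had 17.3, 74.0, 67.4 and 20.7 CPM against 22, 25.3, 21.8 and 23.0. The symbol Rps27a, a fusion of ubiquitin with a small-subunit protein, names 2 features that went opposite ways, at 0.84 and -0.99, and their reads may be shared.

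**Figure D4:**
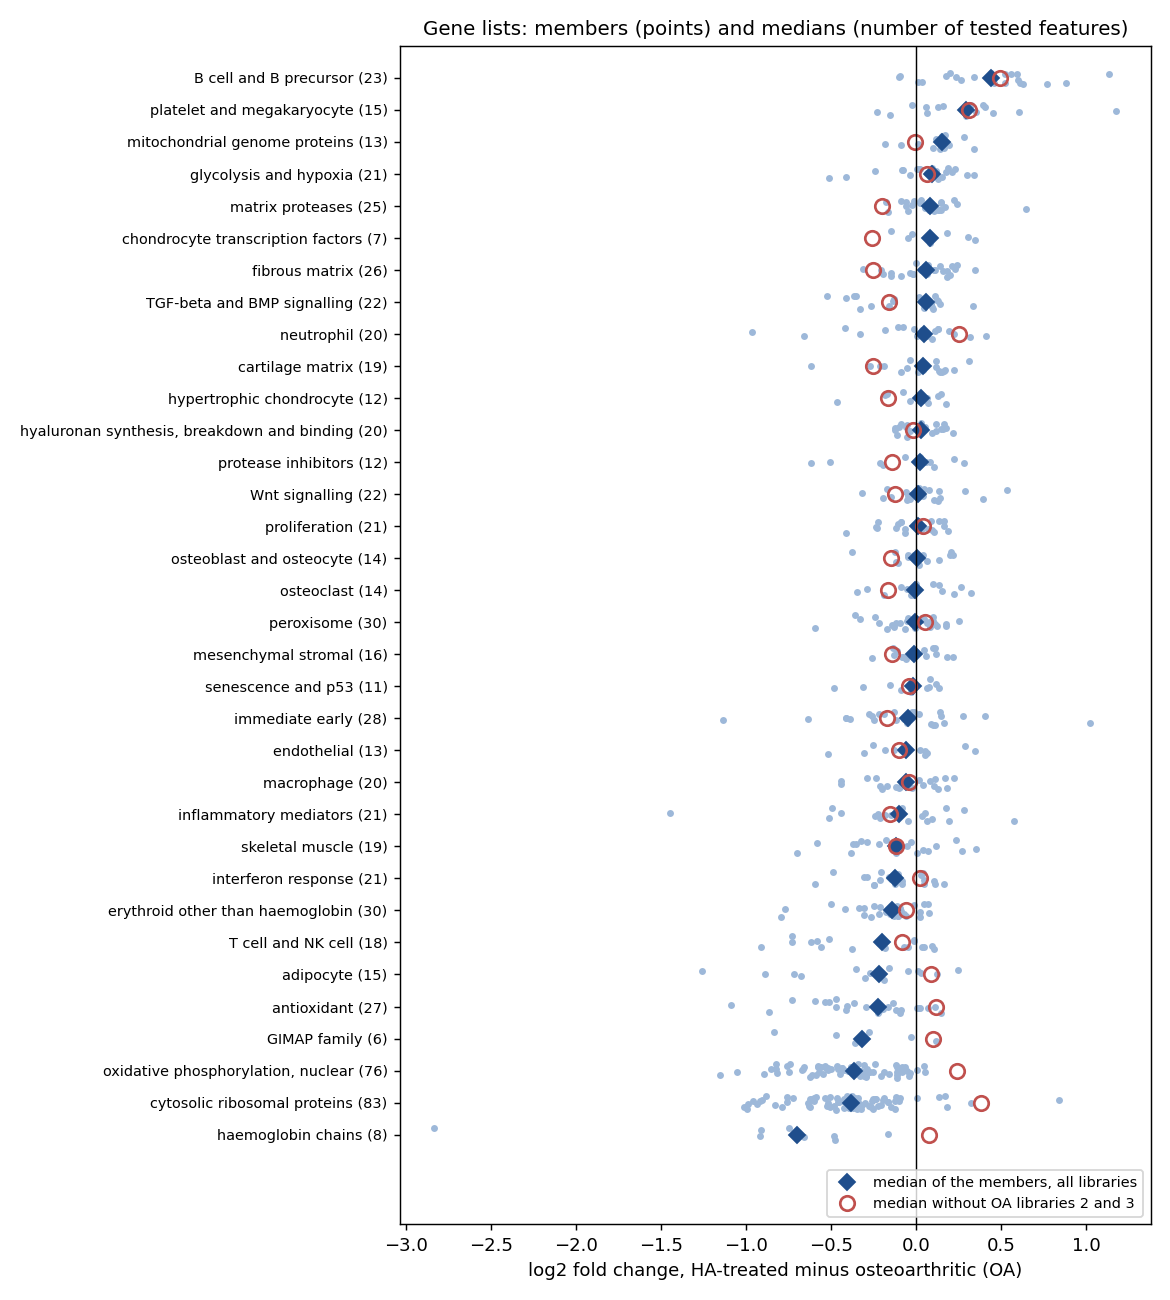
Log2 fold change of HA-treated minus osteoarthritic cartilage (x axis) for the tested features of 34 gene lists (y axis, number of features in brackets); small points are features, diamonds medians over all libraries and open circles medians without osteoarthritic libraries 2 and 3. The circle lies near the diamond for B cell genes (0.49 and 0.44) and platelet genes (0.31 and 0.29) and on the other side of 0 for haemoglobin, ribosomal and oxidative phosphorylation genes.

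Cartilage matrix genes did not pass, and their direction turned with osteoarthritic libraries 2 and 3. The 19 tested members had a median of 0.039, with 12 higher and 7 lower, and without these libraries a median of -0.25, with 2 higher and 17 lower, 0 at a low p. With all libraries there was 1 lower at a low p (Snorc, -0.62, which was 0.13 without them), against 4.08% of all genes. Col2a1, the chief collagen of cartilage, had 2804, 1089.6, 1234 and 2715 CPM in the osteoarthritic libraries and 2080.4, 2015, 3069 and 1989 in the treated ones. Acan, the aggrecan core protein, had 279, 80.1, 102 and 296 against 206, 163, 271 and 179 CPM. Osteoarthritic libraries 1 and 4 were high and libraries 2 and 3 low for both, with the treated libraries mostly between. Prg4, which makes the lubricant lubricin, had 1085, 302, 405 and 871 against 754, 737, 917 and 516 CPM, and the matrix glycoprotein gene Comp had 529, 306, 383 and 400 against 367, 450, 489 and 338. The log2 fold changes were 0.22 for Col2a1, 0.11 for Acan, 0.13 for Prg4 and 0.022 for Comp, and became -0.27, -0.49, -0.42 and -0.18 without osteoarthritic libraries 2 and 3. The chondrocyte transcription factor gene Sox9 had 10.7, 2.64, 4.26 and 4.94 against 6.44, 8.95, 7.05 and 6.19 CPM, and the hypertrophy collagen gene Col10a1 221, 92.2, 95.7 and 191 against 144, 119, 185 and 170. Their 95% intervals spanned 0, as did those of the matrix genes other than Snorc, and a change of up to 1.87-fold in Col2a1 or 1.88-fold in Prg4 lies within the interval.

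No gene that handles hyaluronan itself passed the test. Of 20 tested genes for its synthesis, breakdown and binding, 11 were higher and 9 lower, the median was 0.028, and 0 had an unadjusted p under 0.05, against 6.34% of all genes. The synthase gene Has2 had 5.32, 2.74, 3.45 and 6.77 CPM in the osteoarthritic libraries and 3.83, 5.04, 4.55 and 3.38 in the treated ones. The receptor gene Cd44 had 296, 272, 264 and 332 against 308, 353, 332 and 265 CPM. The hyaluronidase gene Hyal2 had 27.3, 32.7, 30.9 and 25.7 against 31.2, 24.4, 27.5 and 26.6 CPM. All 3 overlapped. The ratio of treated to untreated was 1.08 for Cd44 (95% interval 0.93 to 1.26), 0.94 for Hyal2 (0.809 to 1.09) and 0.918 for Has2 (0.564 to 1.5), so Cd44 and Hyal2 were measured closely and Has2 was not. Ugdh, which makes a sugar precursor of hyaluronan, was at 0.16, Hyal3 at 0.16 and the lysosomal hexosaminidase gene Hexa at -0.12. Has2, Hyal2 and Hexa changed sign with limma. Without osteoarthritic libraries 2 and 3 the list had 10 members on either side and a median of -0.022, and 4 were lower at an unadjusted p under 0.05, against 4.81% of all genes. These were Cemip, Cemip2, Hyal1 and Stab2, named after their values were seen, at 0.051, -0.11, 0.094 and -0.058 with all libraries and -0.52, -0.44, -0.42 and -0.58 without these 2. Cemip encodes a hyaluronan-binding protein that takes part in its breakdown and Cemip2 a relative of it, Hyal1 is the lysosomal hyaluronidase gene and Stab2 a clearance receptor gene.

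Matrix proteases overlapped as well. Of 25 tested, 17 were higher and 8 lower, with a median of 0.082 and 0 at a low p, against 6.34% of all genes. Without osteoarthritic libraries 2 and 3 they turned to 7 higher and 18 lower, with a median of -0.20 and 4 lower at a low p, against 4.81% of all genes. Those 4 were Adamts5, Adamts2, Mmp16 and Adam17, named after their values were seen, at -0.51, -0.51, -0.44 and -0.17. The stromelysin gene Mmp3 had 63.0, 21.3, 41.5 and 137 CPM in the osteoarthritic libraries and 36.8, 134, 81.7 and 14.7 in the treated ones, with 5.00 to 7.34 in healthy cartilage. It was above healthy in both groups (3.49, edgeR adjusted p = 0.029, and 3.51, adjusted p = 0.0453), in tests that share the healthy libraries, and its libraries differed widely within each group. The collagenase gene Mmp13 had 838, 590, 649 and 432 against 631, 685, 734 and 724 CPM (0.14), and the aggrecanase gene Adamts5 28, 11.2, 11.9 and 22 against 17.6, 19.2, 18.2 and 15.4 (-0.058). Neither group was apart from the other in any of these 3 genes. Of 12 protease inhibitor genes, with a median of 0.021, Cst3 alone was lower at a low p (-0.51), against 4.08% of all genes. Cst3 was 0.17 without osteoarthritic libraries 2 and 3, while Timp3 was at 0.28 with all libraries.

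Inflammatory genes were likewise scattered. Of 21 inflammatory mediators, with a median of -0.10, Ccl5 alone was at a low p, against 6.34% of all genes. Ccl5 had 0.813, 6.92, 6.04 and 2.96 against 2.48, 1.52, 0.993 and 1.12 CPM. Its log2 fold change of -1.45 was -0.29 without osteoarthritic libraries 2 and 3. Il1b, the interleukin 1 beta gene, had 10.8, 25.1, 27.4 and 20.3 against 13.5, 19.8, 10.3 and 15.6 CPM, with overlap. Macrophage genes (20 tested) had a median of -0.059 and 0 at a low p, and neutrophil genes (20 tested) a median of 0.043. Of the neutrophil genes 1 was at a low p on either side, where all genes had 2.26% higher and 4.08% lower. They were the granule enzyme gene Mpo, at 0.41, and the calcium-binding protein gene S100a8, at -0.97. S100a8 had 938, 5718, 3637 and 1180.3 CPM in the osteoarthritic and 1315 to 1648 in the treated libraries. It was 0.47 without osteoarthritic libraries 2 and 3. Without those libraries 16 of 20 neutrophil genes were higher, 8 at a low p against 6.6% of all genes, with a median of 0.25. Adipocyte genes had a median of -0.22 with 3 of 15 lower at a low p, against 4.08% of all genes: Fabp4, Cfd and Retn. Fabp4, the fatty-acid carrier of fat cells, had 186, 548, 691 and 74.4 against 146, 206, 120 and 153 CPM, and the median was 0.088 without those libraries.

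The lists for mitochondrially encoded proteins, chondrocyte transcription factors, hypertrophic chondrocytes, interferon response, proliferation, macrophages, T and NK cells, osteoblasts, osteoclasts, mesenchymal stroma, fibrous matrix and the hyaluronan and protease genes held 0 members at an unadjusted p under 0.05 with all libraries. The lists for immediate early genes, senescence, glycolysis and hypoxia, Wnt signalling, skeletal muscle and endothelium held 1 each. Over all genes, 6.34% had such a p. Lists of the connective tissue also turned without osteoarthritic libraries 2 and 3. Fibrous matrix genes went from 17 higher and 9 lower (median 0.058) to 3 and 23 (-0.25). Lower at a low p in that fit were 3 of them, against 4.81% of all genes. Those were Fbn1, Col12a1 and Tnc, named after their values were seen. Chondrocyte transcription factors went from 4 higher and 3 lower (0.079) to 0 and 7 (-0.26), with Trps1 alone lower at a low p, against the same 4.81%. Osteoblast and osteocyte genes went from 7 and 7 (0.0029) to 2 and 12 (-0.15). Wnt genes went from 12 and 10 (0.010) to 8 and 14 (-0.13). In all, 19 of the 34 list medians changed sign. No member of any of the 34 lists passed the adjusted test, with all libraries or without osteoarthritic libraries 2 and 3.

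Side by side with healthy cartilage, the B cell list had a median log2 fold change against healthy of -0.61 in osteoarthritic and -0.15 in HA-treated cartilage. The antioxidant list was at 0.30 and 0.066. Fibrous matrix genes were at 0.50 and 0.53, matrix proteases at 0.40 and 0.38, and skeletal muscle genes at -0.68 and -0.75. Both sets of values share the healthy libraries, and no difference between them was tested. For Cat, the log2 fold change against healthy was 0.30 in the osteoarthritic and -0.29 in the HA-treated group, with edgeR adjusted p-values of 0.257 and 0.584.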

How the data were processed

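Libraries were made from knee cartilage RNA with a RIN above 7, selected with oligo(dT) beads and with the second strand marked by dUTP and removed, per the labels' protocols. Build rn6 and the tools edgeR, DESeq2, StringTie 2.1.6, HISAT2 2.2.1 and cutadapt 1.9 appear in the submitters' processing notes, which give no roles. The counting tool, annotation and strand setting are not given in the sources used here. For 23552 genes the authors deposited whole-number counts without normalisation. Beside them, per the file headers, stand FPKM values, in which the authors corrected for gene length and depth.

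Counts were tested with edgeR 4.0.16 (quasi-likelihood, TMM scaling, 4 group means over all 16 libraries, Benjamini-Hochberg adjustment, threshold 0.05) in R 4.3.3, for the 14337 genes with FPKM of at least 1 in at least 4 libraries. CPM are scaled to the effective library size, log2 levels use a prior count of 2, and intervals are 95% intervals of the fit. Called a low p is an unadjusted p under 0.05. Alternatives were other scalings and filters, DESeq2 1.42.0, limma 3.58.1 on log2(FPKM + 1) and log2(FPKM + 0.1), the 8 libraries alone, a replicate block, each replicate left out and, chosen after seeing the data, osteoarthritic libraries 2 and 3 left out together. DESeq2 gave no adjusted p for genes outside the 14323. Replicate numbers did not pair the libraries. On simulated counts over 14337 genes, the procedure recovered 14.9% of 1.5-fold changes, 67.2% of those of 2-fold and 95.5% of those of 4-fold. Of its calls 2.48% were false. The simulation gave a gene the same spread in every group and drew libraries independently. In the data the median spread was 0.34 in the osteoarthritic and 0.18 in the HA-treated group, and osteoarthritic libraries 2 and 3 moved together. These recovery rates therefore need not hold for this comparison.

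Genes, the 34 lists and the tests were chosen with earlier results of these data known. Named genes were Cat, Erfe, Gimap4 and Rag1, the 10 named symbols with the smallest p on each side, and the 8 largest differences on each side without overlap (unadjusted p under 0.05, and a mean of 5 FPKM or more in whichever group was higher). Also named were up to 3 members of each list described, a fixed panel of 12 cartilage genes, and genes called by another tool. Fech, Gata1, Klf1, Ms4a1, Tnfrsf13c, Cd3e and the parents of copies fell outside this rule and were chosen after their values were seen. Symbols were matched to RefSeq tables (GRCr8) for sequences only. Total counts of 44497935 to 48985255 make counting error small beside the spread between libraries except where few counts are given. The result of 1 gene that the naming rule selects is not reported here.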

Additional observations from a re-analysis of the deposited data

Results flagged for a closer look

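In 18 of 260 groups of 4 libraries checked (6.92%), 1 library stood apart from the other 3 by more than Dixon's 95% limit, and chance flags about 1 in 20. In CPM, low among the HA-treated libraries were Gimap4 in library 3 (8.48, others 10.6 to 10.9), Tmem241 in library 2 (1.14, others 1.74 to 1.80), Tspan4 in library 2 (12.6, others 18.9 to 19.5), Timp3 in library 4 (101, others 113 to 116), Alas2 in library 1 (793, others 964 to 975) and Smad6 in library 4 (2.69, others 3.95 to 4.16). High among them were Echdc3 in library 3 (1.30, others 0.949 to 0.989), one of the 2 features named Rps27a in library 2 (393, others 229 to 251) and Col2a1 in library 3 (3069, others 1989 to 2080).

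Among the osteoarthritic libraries, library 1 was high for Irf4 (46.1, others 26.8 to 29.7) and for AABR07065768.1 (7.80, others 0) and low for the other Rps27a feature (65.7, others 119 to 123). Library 4 was low for Bmp4 (14.5, others 18.7 to 19.5) and high for AC093995.1 (0.239, others 0), and library 2 was high for Smad6 (5.44, others 4.77 to 4.83). The mean log2 level of protease inhibitors was -0.062 in osteoarthritic library 2 (others 0.14 to 0.18). That of interferon response genes was -0.57 in osteoarthritic library 1 (others 0.18 to 0.29) and 0.37 in HA-treated library 1 (others -0.23 to -0.15). No osteoarthritic library that stood apart as one of a pair can be found by this check, which compares a single library with the 3 others.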

How the results depend on the processing

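With the other settings edgeR called 0 genes, except 1 without osteoarthritic replicate 4, and leaving out each replicate gave 0 to 1 calls; DESeq2 called 8 and limma 1 at either pseudocount. Genes at an unadjusted p under 0.05 numbered 909 with all libraries, 415 in the 8 libraries alone, 642 with a replicate block, 1636 without osteoarthritic libraries 2 and 3, and 332 to 2765 with 1 replicate left out. Genes without overlap numbered 273, 3272 without both libraries, and 379 to 987 with 1 replicate left out, where fewer libraries overlap less easily. Only 1 of 4 HA-treated libraries correlated best with the osteoarthritic library of its own number, so the pairing was not used, and the replicate block turned Mmp3 to -0.21 and changed no call. Of 1728 values of 96 named genes under 18 alternatives, 1654 kept direction and call, 11 passed the threshold and 63 changed sign in 35 genes; the cause was not tested.

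Without osteoarthritic libraries 2 and 3, 19 of the 34 list medians changed sign: they were -0.25 (cartilage matrix), -0.16 (hypertrophic chondrocyte), -0.14 (protease inhibitors), 0.096 (GIMAP), 0.073 (haemoglobin), 0.11 (antioxidant), 0.054 (peroxisome), 0.24 (oxidative phosphorylation), 0.38 (ribosomal) -0.16 (TGF-beta and BMP), -0.26 (chondrocyte transcription factors), -0.25 (fibrous matrix), -0.20 (matrix proteases), -0.15 (osteoblast), -0.13 (Wnt), -0.022 (hyaluronan), -0.0071 (mitochondrial genome), 0.019 (interferon) and 0.088 (adipocyte). The log2 fold changes that changed sign there were 0.13 (Snorc), 0.35 (Ucma), -0.016 (Cilp), 0.17 (Cst3), 0.36 (Ccl6), 0.33 (C1qa), 0.38 (Aif1), 0.47 (S100a8), 0.50 (Camp), 0.25 (Cd3d), 0.28 (Gimap5), 0.12 (Hbb), 0.19 (LOC100134871), 0.13 (Gpx1), 0.30 (Uqcrq), 0.34 (Ndufc1), 0.0042 (Cyc1), 0.28 (Rpl37), 0.10 (the Rps27a feature at -0.99), 0.036 (Id3), 0.26 (Fabp4), 0.13 (Cfd), 0.23 (Retn), -0.42 (Prg4), -0.13 (Sox9), -0.49 (Acan), 0.047 (Hyal2), -0.58 (Mmp3), -0.18 (Comp), -0.42 (Col10a1) and -0.27 (Col2a1).

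With limma at pseudocounts of 1 and 0.1, which raised the median of all genes by 0.13 and 0.16, medians were 0.081 and 0.092 (macrophage), 0.013 and 0.013 (erythroid), 0.15 and 0.16 (proliferation), 0.13 and 0.13 (senescence), 0.13 and 0.14 (peroxisome), 0.23 and 0.23 (glycolysis), and 0.13 and 0.14 (endothelial). At 0.1 alone they were 0.17 (protease inhibitors), 0.44 (platelet) and 0.24 (TGF-beta and BMP). Hexa was 0.024 and 0.024, Has2 0.0086 and 0.071, Hyal2 0.052 and 0.056, and Adamts5 0.13 and 0.19.

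With 1 replicate left out, medians ranged from 0.18 to 0.47 (platelet), -0.12 to 0.042 (senescence), -0.052 to 0.029 (peroxisome) and -0.17 to 0.077 (endothelial). Log2 fold changes ranged from -0.11 to 0.47 (Prg4), -0.31 to 0.11 (Has2), -0.020 to 0.30 (Mmp13), -0.15 to 0.39 (Acan), -0.57 to 0.65 (Mmp3), -0.10 to 0.16 (Comp), -0.14 to 0.28 (Col10a1) and -0.24 to 0.21 (Adamts5).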
